A study of Rattus norvegicus with 8 samples.

Results

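The genes described here make, move and store cholesterol. They are 37 listed genes: 18 enzymes of cholesterol synthesis and 19 regulators, carriers, receptors, transporters and storage or turnover enzymes. Each was measured through the probe sets annotated to it alone, and its value on an array was the mean log2 ratio of those probe sets. Of the 37, 35 had such a probe set: 32 on the array type called chip A (48 probe sets), 8 on chip B (12 probe sets) and 5 on both, out of 13810 genes named on either type. Hmgcs1, the synthase before HMG-CoA reductase, and Npc1, the lysosomal cholesterol exporter, had none and have no value here.

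RNA came from cells of postnatal day 7 rat brain that carried A2B5 and OTMP, surface markers used to isolate glial cells, and that the labels call perineuronal oligodendrocytes. All samples are of this 1 untreated population. Strain, sex, genotype and the number of animals per replicate are not given in the sources used here, and no control population was part of the series. Each of 4 biological replicates was read on chip A and on chip B, which gave 8 arrays. Each deposited value is a linear ratio, per probe set, against an unnamed reference. A ratio above 1 (log2 above 0) means more signal than in that reference, whose make-up is not known, including whether these arrays entered it, and it ranks no gene's amount of RNA against another's. In bulk RNA, fewer cells of a type and less RNA per cell cannot be told apart.

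The labelled cell type was set against its markers, since it bears on every gene below. By the same limma test, 9.17% of all chip A genes were above a ratio of 1 and 32.9% below. The shares on chip B were 4.13% and 30.9%. On chip A 1 of 4 oligodendrocyte precursor markers was above the reference, Pdgfra, and 0 of 6 myelin markers were in limma (1 at an unadjusted p under 0.05), with Cldn11 below. On chip B Olig2 was below, a call lost after centring (limma adjusted p = 0.0732). Astrocyte markers were above in 9 of 10, with a mean log2 ratio over the 10 of 1.15 to 1.59 per array, and neuron markers in 3 of 5, though the neuron marker Syt1 on chip B was below (-0.45; limma adjusted p = 0.00145), while 3 of 6 microglia markers were below and 0 of 4 endothelial markers passed in either direction (0 at an unadjusted p under 0.05 in limma). After centring 0 of the 6 microglia markers were below by limma (3 at an unadjusted p under 0.05) and the myelin marker Mag was above (limma adjusted p = 0.0397), with the astrocyte and neuron counts on chip A as before. The centred shares of all chip A genes were 12.3% above and 24.6% below. The markers thus did not single out the labelled type over astrocytes, although ratios to an unnamed reference cannot show whether a gene was expressed. Several members are well known in astrocytes (Apoe, Clu, Lcat, Lrp1, Abca1), and the part of astrocyte RNA in the members' ratios was not tested.

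Myelin is rich in cholesterol, and the brain makes its own because lipoproteins of the blood do not cross the blood-brain barrier. The mevalonate arm builds isoprenoid units, squalene is then formed and closed to lanosterol, and a last set of enzymes trims lanosterol to cholesterol. The SREBP transcription factors switch on these enzymes after Scap has escorted them out of the endoplasmic reticulum, and the Insig proteins hold Scap back when sterol is plentiful. The liver X receptors answer to oxidized sterols and switch on the exporters Abca1 and Abcg1. In brain, astrocytes release cholesterol on apolipoprotein E particles.

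SREBP factors bind sterol elements that often lie near CCAAT boxes, the binding letters of the factor NF-Y, so the stretches upstream of 5 synthesis genes are shown: those of the 4 enzymes with the highest chip A ratios, and that of Ebp, the 1 synthesis enzyme below the reference. They are the 250 bases before the gene start in RefSeq (GRCr8), at chr1:212789542-212789791 (minus strand), chr1:208444184-208444433 (plus strand), chr4:30991443-30991692 (plus strand), chr20:12118231-12118480 (minus strand) and chrX:16971212-16971461 (plus strand). Letters are written in lower case, with matches to the searched motifs in capitals, on the gene's strand from 5′ to 3′.
Tm7sf2: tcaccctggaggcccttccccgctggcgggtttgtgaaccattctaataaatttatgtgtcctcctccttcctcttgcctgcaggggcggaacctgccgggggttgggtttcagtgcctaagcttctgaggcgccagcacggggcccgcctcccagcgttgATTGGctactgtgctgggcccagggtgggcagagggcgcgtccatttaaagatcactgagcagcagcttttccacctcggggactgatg
Dhcr7: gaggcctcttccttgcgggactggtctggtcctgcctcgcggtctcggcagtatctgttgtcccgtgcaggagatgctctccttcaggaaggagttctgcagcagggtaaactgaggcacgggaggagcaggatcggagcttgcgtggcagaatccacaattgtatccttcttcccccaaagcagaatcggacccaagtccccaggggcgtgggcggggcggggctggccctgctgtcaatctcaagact
Cyp51: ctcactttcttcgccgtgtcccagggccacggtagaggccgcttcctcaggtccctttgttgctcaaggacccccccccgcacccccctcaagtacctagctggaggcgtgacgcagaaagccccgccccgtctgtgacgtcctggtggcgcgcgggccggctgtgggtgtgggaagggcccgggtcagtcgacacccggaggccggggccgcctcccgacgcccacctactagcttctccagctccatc
Lss: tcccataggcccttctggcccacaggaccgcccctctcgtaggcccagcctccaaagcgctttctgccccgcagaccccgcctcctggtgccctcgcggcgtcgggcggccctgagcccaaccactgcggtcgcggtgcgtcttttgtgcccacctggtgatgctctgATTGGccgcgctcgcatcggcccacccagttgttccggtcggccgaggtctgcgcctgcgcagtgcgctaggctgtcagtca
Ebp: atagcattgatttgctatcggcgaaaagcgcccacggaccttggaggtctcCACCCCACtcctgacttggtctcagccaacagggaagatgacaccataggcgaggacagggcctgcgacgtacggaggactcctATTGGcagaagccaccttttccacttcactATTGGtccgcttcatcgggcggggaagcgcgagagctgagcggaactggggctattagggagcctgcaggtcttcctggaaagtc

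The motifs searched, on both strands, were CCAAT, CACCCCAC, TCACNCCAC and the E box CACGTG. CACCCCAC ends the sterol element of the LDL receptor gene, and TCACNCCAC, in which N is any letter, can overlap it. Promoter entries existed for 31 of the 37 genes. Each member counted once if any of its entries held a match, while all stretches were counted singly. Apoe and Srebf1 alone had more than 1 entry, and the CCAAT match of Apoe lay in 1 of its entries only. A CCAAT box lay in 12 of 15 synthesis enzymes and 9 of 16 other members, against 34% of all 33469 stretches of the same length. Tm7sf2 and Lss held 1 each and Ebp held 2, while Dhcr7 and Cyp51 held none of these letters in this window. CACCCCAC was found in Ebp alone among the members (2.32% of all stretches), TCACNCCAC in 0 (0.974%), and CACGTG in 4, which were Sc5d, Insig1, Scap and Abca1 (5.59%). These matches describe letters only. Ebp had the most matches of the 5, but these were picked by their ratios. Among enzymes outside them, Nsdhl held 5 CCAAT boxes, and Msmo1 and Hsd17b7 held 3 each. Their mean log2 ratios on chip A were 0.54, 0.55 and 0.61, in that order. Mvk also held 5, at -0.05. Whether matches and ratios go together was not tested.

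On chip A, 15 of the 32 members lay above a ratio of 1 and 6 below it (limma, two-sided, Benjamini-Hochberg over all 10411 genes at 0.05). Of all genes on chip A, 9.17% were above and 32.9% below by the same test. The enzymes made up most of the higher group: 10 of 17 were above and 1 below, against 5 and 5 of the 15 other members. All 4 arrays were above 1 for 10 of the 17 enzymes and 6 of the 15 other members, and for 12.2% of all genes. The median log2 ratio was 0.47 for the enzymes, -0.07 for the other members and -0.14 for all genes. With each array centred on its median, 16 members were above and 3 below, against 12.3% and 24.6% of all genes, so the share of called members that lay above depends on the centre. With probe sets fitted singly, 21 of the 48 member probe sets were above and 8 below, against 9.21% and 30.1% of all probe sets. They belong to 18 and 8 genes, and Mvk, Srebf2 and Clu had probe sets on both sides. The count above fell most without replicate 1, to 9 members, 5 of them enzymes, with 3 below. Without replicate 4 there were 10 above (6 enzymes) and 3 below, and without replicate 3, 11 (6 enzymes) and 5. Fewer arrays can lower such counts by themselves, and no all-gene share was taken for these fits. The members were chosen with results of these data known, so the counts carry no test of the list as a whole.

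**Figure D1:**
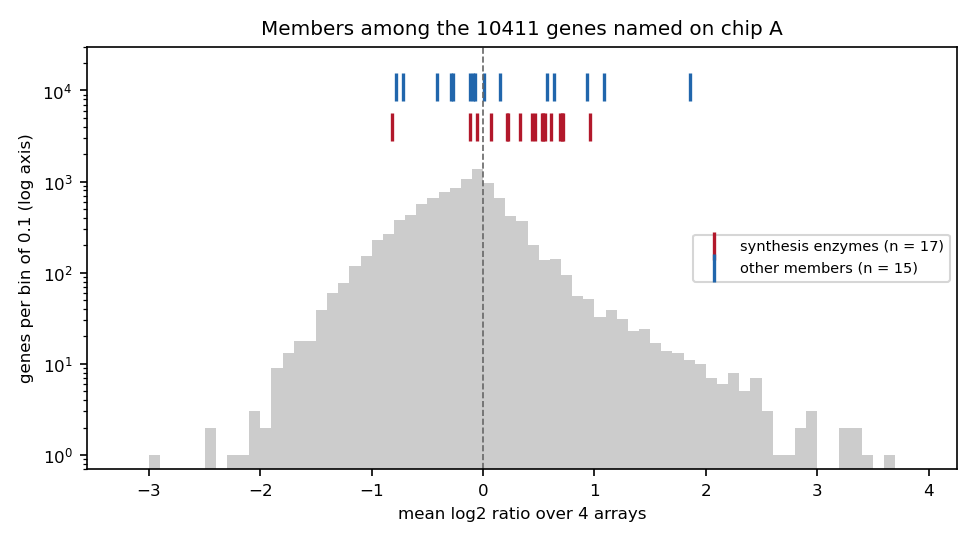
Histogram of the mean log2 ratio over 4 chip A arrays (x axis) of all 10411 named genes, with the number of genes per bin on a log axis. Ticks above it mark the 17 synthesis enzymes (lower line) and the 15 other members (upper line). The enzymes have a median of 0.47 and reach from -0.81 to 0.96, and the other members have a median of -0.07 and reach from -0.78 to 1.86.

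Of the 15 members above the reference, 9 were enzymes from squalene synthase onward. Of the 11 such enzymes measured, 9 were thus above and Ebp below, while in the mevalonate arm 1 of 6 was above. By the same test 9.17% of all chip A genes were above and 32.9% below. Averaged over genes, the 11 enzymes stood at log2 ratios of 0.60, 0.20, 0.82 and 0.31 in replicates 1 to 4, a mean of 0.48 ± 0.28 (SD, n = 4 arrays). The mevalonate arm stood at 0.184, 0.093, -0.004 and 0.244, a mean of 0.13 ± 0.11. The difference between them was positive on 4 of 4 arrays but uneven, at 0.42, 0.10, 0.82 and 0.07, so its mean of 0.35 equals its SD of 0.35. It rests mainly on replicates 1 and 3.

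In the mevalonate arm the gene of the decarboxylase Mvd, which makes the isoprenoid unit, was the called one. Its ratios were 1.33, 1.54, 1.01 and 1.64 in replicates 1 to 4, a mean log2 ratio of 0.44 ± 0.31 (SD, n = 4; limma adjusted p = 0.0399). Replicate 3 was at the reference and the others above it. The call was lost with a trended, robust prior and without replicate 1, 2 or 4, with limma adjusted p-values from 0.0114 to 0.128 over the 9 alternatives.

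The other genes of the arm did not pass. Acat2, the cytosolic thiolase that joins acetyl units, had ratios of 1.55, 0.986, 1.02 and 1.17, high in replicate 1 alone (mean log2 0.22, 95% interval -0.09 to 0.53). Fdps, which makes farnesyl diphosphate, had 0.943, 1.08, 1.56 and 1.17, highest in replicate 3 (0.22, interval -0.10 to 0.54). The isomerase gene Idi1 had 1.19, 0.781, 0.82 and 1.58, with replicates 1 and 4 above the reference and 2 and 3 below (0.07, interval -0.39 to 0.53). The phosphomevalonate kinase gene Pmvk had 0.969, 1.16, 0.77 and 0.835, above 1 in replicate 2 alone (-0.12, interval -0.40 to 0.16). The mevalonate kinase gene Mvk had 0.957, 0.993, 0.968 and 0.937, but this even level averages probe sets that disagree, as described further on.

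Squalene and lanosterol formation came next. Lss, which closes the ring to lanosterol, had ratios of 1.74, 1.38, 1.77 and 1.61, all above the reference and close together (mean log2 0.69 ± 0.16; limma adjusted p = 0.00179). Fdft1, squalene synthase, had 1.53, 1.07, 1.78 and 1.24 (0.47 ± 0.32; limma adjusted p = 0.0363), with replicate 2 nearest to 1. Its call was lost with the trended, robust prior and without replicate 1, 3 or 4 (limma adjusted p from 0.0195 to 0.113 over the alternatives). Sqle, the epoxidase that limits the late pathway, had 1.37, 0.946, 1.61 and 1.22, below 1 in replicate 2 alone (0.34 ± 0.32; limma adjusted p = 0.0939, interval 0.01 to 0.66). It passed without replicate 2 (limma adjusted p = 0.0262, and up to 0.249 over the alternatives).

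Between lanosterol and cholesterol 7 of 8 enzymes were above the reference, against 9.17% of all chip A genes. The sterol reductase gene Tm7sf2 was the highest enzyme, at ratios of 1.72, 1.62, 2.90 and 1.77 (mean log2 0.96 ± 0.39; limma adjusted p = 0.00473). Replicate 3 stood apart from the other 3, which lay close together. Cyp51, the lanosterol demethylase, had 1.92, 1.36, 1.94 and 1.41 (0.71 ± 0.28; limma adjusted p = 0.00544), higher in replicates 1 and 3 on each of its probe sets. Dhcr7, the reductase of the last step, had 1.99, 1.46, 1.74 and 1.43 (0.72 ± 0.23; limma adjusted p = 0.00318).

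The methylsterol oxidase gene Msmo1 had ratios of 1.47, 1.28, 1.72 and 1.44 (mean log2 0.55 ± 0.17; limma adjusted p = 0.00478), all above the reference. Nsdhl, the decarboxylating dehydrogenase, had 1.58, 1.32, 1.96 and 1.09 (0.54 ± 0.36; limma adjusted p = 0.0296), lowest in replicate 4. The ketoreductase gene Hsd17b7 had 1.83, 1.02, 2.19 and 1.33 (0.61 ± 0.49; limma adjusted p = 0.0461), spread from the reference upward, and neither of its probe sets passed alone (limma adjusted p = 0.061 and 0.0538). Sc5d, a sterol desaturase, had 1.58, 1.04, 1.79 and 1.47 (0.53 ± 0.33; limma adjusted p = 0.026), with replicate 2 near 1. These last 3 calls were not stable: Nsdhl was lost without replicate 1, 2 or 3 (limma adjusted p up to 0.0924), Sc5d without 1, 3 or 4 (up to 0.0849), and Hsd17b7 without 1, 3 or 4 and with the trended, robust prior (up to 0.136). The lowest values over the alternatives were 0.0198, 0.00578 and 0.0132.

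Ebp, the sterol isomerase that acts just before Sc5d, was the exception. Its ratios were 0.622, 0.546, 0.776 and 0.397 in replicates 1 to 4, a mean log2 ratio of -0.81 ± 0.40 (limma adjusted p = 0.00981). All 4 arrays lay below the reference, where those of its neighbours in the pathway lay above. The gene had 1 probe set, so a second reading within these arrays was not at hand. Its call held in all 9 alternatives (limma adjusted p from 0.00596 to 0.0282).

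**Figure D2:**
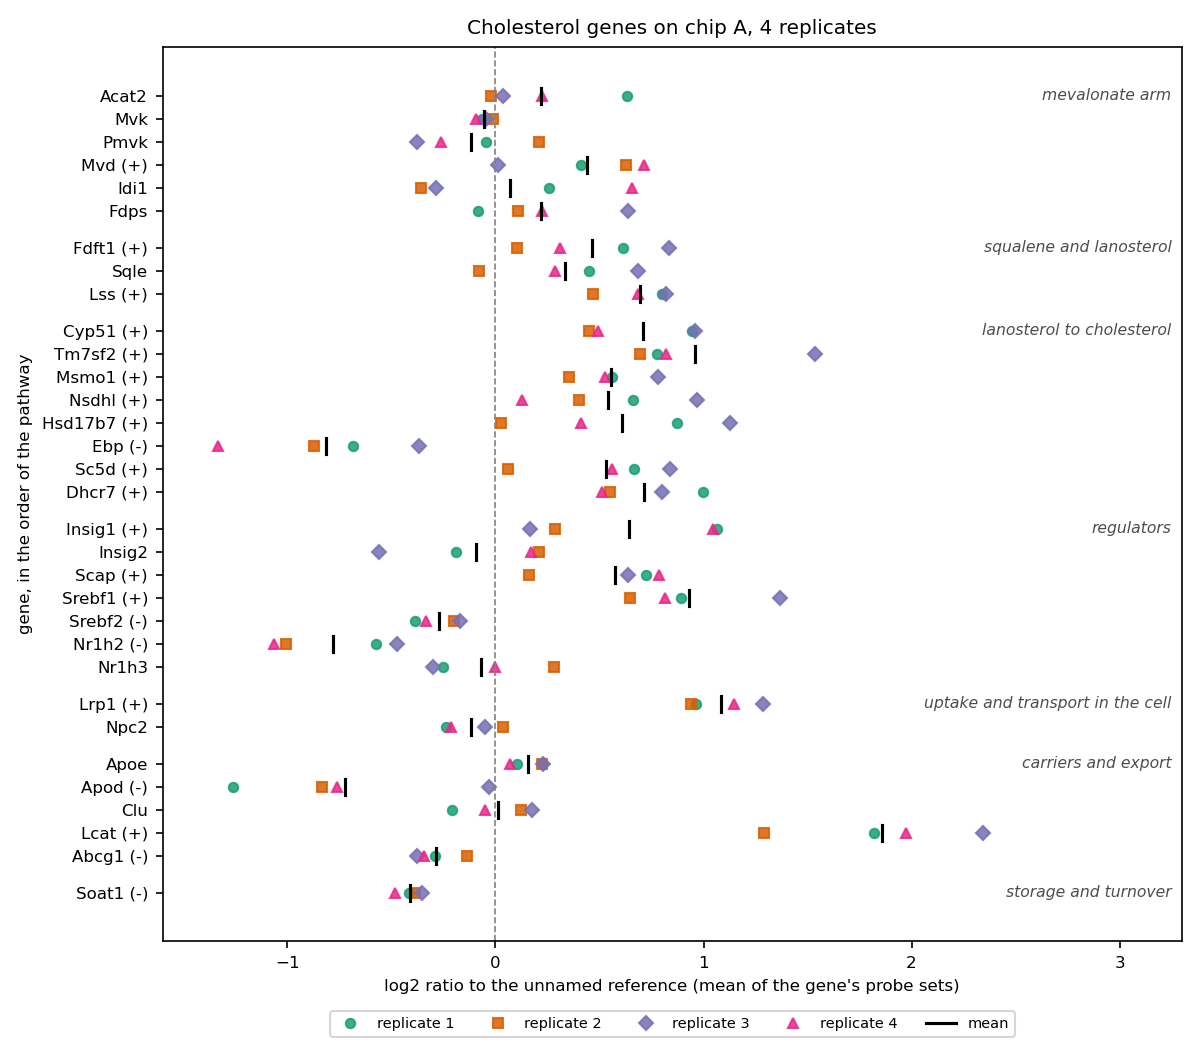
Log2 ratio (x axis) of each of the 32 members on chip A in the order of the pathway, as the mean of the gene's probe sets. Symbols are the 4 replicates, black bars their mean, the dashed line a ratio of 1, and (+) or (-) marks genes above or below it in limma. The enzymes from Fdft1 to Dhcr7 lie to the right of the line except Ebp at -0.81, and Lcat is farthest right at 1.86.

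The replicates ordered these enzymes alike. Among the 11 from squalene synthase onward, replicate 3 gave the highest ratio for 10 and replicate 2 the lowest for 8, with replicate 4 lowest for the other 3. Over all genes replicate 3 was highest for 35.5% and replicate 2 lowest for 20%. Even Ebp, low throughout, was highest in replicate 3. Fatty acid synthesis genes had group means of 0.457, 0.172, 0.414 and 0.200 in replicates 1 to 4. Astrocyte markers, 9 of 10 of which were above the reference, had 1.588, 1.152, 1.544 and 1.189, also lowest in replicates 2 and 4. Markers of oligodendrocyte precursors (Pdgfra, Cspg4, Olig1 and Sox10 on chip A) had 0.241, -0.582, 0.791 and 0.747, lowest in replicate 2. Microglia markers had -0.502, -0.739, -0.050 and -0.714, below the reference throughout and in the same array order as the mean of the 11 enzymes. Other marker groups were ordered otherwise. Neuron markers on chip A had 0.999, 0.670, 0.546 and 0.584, lowest in replicate 3. Endothelial markers had -0.592, 0.419, 0.156 and 0.124, highest in replicate 2. Myelin markers had 0.094, -0.102, 0.006 and 0.036, highest in replicate 1 and lowest in replicate 2. Whether the mix of cells had a part in the enzymes' spread was not tested.

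**Figure D3:**
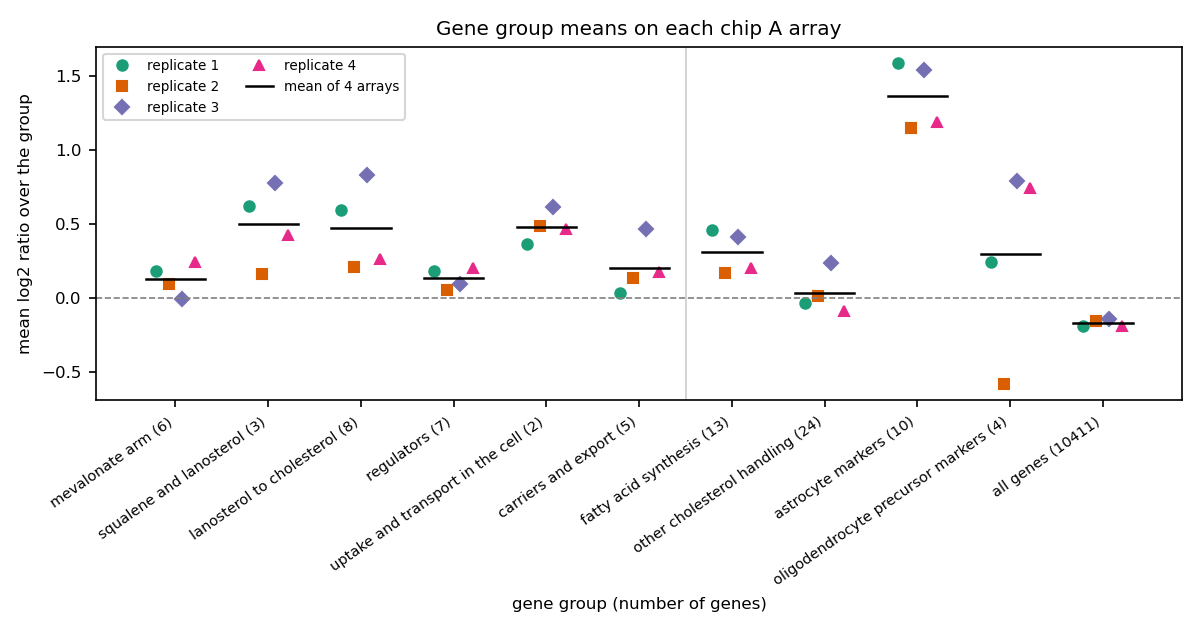
Mean log2 ratio over the genes of each group (y axis) on each of the 4 chip A arrays (symbols), with black bars for the mean of the arrays. Left of the grey line are members and right of it comparison groups. The groups squalene and lanosterol and lanosterol to cholesterol are highest in replicate 3 (0.78 and 0.83) and lowest in replicate 2 (0.16 and 0.21), while all genes stay between -0.19 and -0.14.

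Among the 7 regulators 3 were above the reference and 2 below, against 9.17% and 32.9% of all chip A genes. Srebf1, which encodes the SREBP factor of lipid and fatty acid genes, was the highest at ratios of 1.86, 1.57, 2.58 and 1.76 (mean log2 0.93 ± 0.31; limma adjusted p = 0.00266), and each of its probe sets passed alone. Scap, the escort of the SREBPs, had 1.65, 1.12, 1.55 and 1.72 (0.58 ± 0.28; limma adjusted p = 0.0125), with replicate 2 nearest to 1. Insig1, which retains Scap and is itself an SREBP target, had 2.09, 1.22, 1.12 and 2.06 (0.64 ± 0.48; limma adjusted p = 0.0379). Insig1 was high in replicates 1 and 4, as Idi1 was, and not in replicate 3, where the late enzymes peaked. Its call was lost without replicate 1 or 4 (limma adjusted p from 0.0291 to 0.12 over the alternatives).

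Srebf2 encodes the SREBP factor most tied to cholesterol synthesis. Its ratios, averaged over a pair of probe sets, were 0.764, 0.870, 0.889 and 0.795 (mean log2 -0.27 ± 0.10; limma adjusted p = 0.0307). That average hides opposite readings: 1 probe set had 1.25, 1.51, 1.55 and 1.36 (0.50; limma adjusted p = 0.00593) and the other 0.468, 0.5, 0.511 and 0.463 (-1.04; 0.000195). Neither direction can therefore be given for the gene. The call of the average was also lost after centring and without replicate 1, 2 or 4 (limma adjusted p up to 0.116 over the alternatives, from 0.0307).

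The liver X receptor genes and Insig2 were not above the reference. Nr1h2, the receptor's beta form, had ratios of 0.672, 0.497, 0.721 and 0.478 (mean log2 -0.78 ± 0.30; limma adjusted p = 0.00478), with replicates 2 and 4 lowest. Of its probe sets 1 was even, at 0.499 to 0.538, and passed alone, and the other ranged from 0.458 to 0.991 and did not (limma adjusted p = 0.0989). Nr1h3, the alpha form, had 0.841, 1.22, 0.811 and 0.999 (-0.07, interval -0.36 to 0.22). Insig2, the other retention protein, had 0.876, 1.16, 0.679 and 1.13 on chip A (-0.09, interval -0.45 to 0.27), with 2 arrays on each side of the reference.

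On chip A the largest mean ratios among the members were those of Lcat and Lrp1, each read by 1 probe set. The 5 genes of carriers and export measured there had a median log2 ratio of 0.01. Lcat, the enzyme that esterifies cholesterol on lipoprotein particles, had 3.53, 2.45, 5.08 and 3.93 in replicates 1 to 4, a mean log2 ratio of 1.86 ± 0.44 (limma adjusted p = 0.000573). Its lowest array lay above every array of each synthesis enzyme but replicate 3 of Tm7sf2. Lrp1, a large receptor that takes up apolipoprotein E particles, had 1.95, 1.92, 2.44 and 2.21 (1.08 ± 0.16; limma adjusted p = 0.000356), close together. Npc2, the soluble lysosomal cholesterol carrier, stayed near the reference at 0.848, 1.02, 0.965 and 0.861 (-0.12, interval -0.31 to 0.08).

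The apolipoproteins went apart. Apoe, the main lipid carrier of brain, had ratios of 1.07, 1.17, 1.17 and 1.05 (mean log2 0.16 ± 0.08; limma adjusted p = 0.128), above 1 on all 4 arrays. After each array was centred on its median it passed, at 0.27 (limma adjusted p = 0.015, the lowest over the alternatives, which reached 0.317). Its probe sets, drawn from the same transcript record, stood at 0.40 (limma adjusted p = 0.00708) and -0.09 (0.395). Apod, another lipid carrier of glia, had 0.417, 0.561, 0.980 and 0.589 (-0.72 ± 0.51; limma adjusted p = 0.0307), with replicate 3 at the reference and the rest below. Its call was lost after centring and without replicate 1, 2 or 4 (limma adjusted p from 0.00629 to 0.0903 over the alternatives).

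Clu, which encodes clusterin, an apolipoprotein of astrocytes, averaged to the reference, at 0.866, 1.09, 1.13 and 0.966 (mean log2 0.01 ± 0.17; limma adjusted p = 0.94). Its probe sets, again from the same record, opposed each other on all 4 arrays. The probe set that reads several transcripts of the gene (_a_at in its name) had 1.92, 2.47, 3.34 and 1.99 (1.25; limma adjusted p = 0.00199), and the other had 0.390, 0.480, 0.382 and 0.468 (-1.23; 0.0003). The exporter gene Abcg1 had 0.816, 0.909, 0.770 and 0.789 (-0.29 ± 0.11; limma adjusted p = 0.0261), from 3 probe sets of which 1 passed alone, at -0.61. Its call was lost after centring, with the median probe set and without replicate 1, 3 or 4 (limma adjusted p up to 0.126 over the alternatives, from 0.0256). Soat1, which esterifies cholesterol for storage, had 0.748, 0.765, 0.783 and 0.715 (-0.41 ± 0.06; limma adjusted p = 0.0049), the average of probe sets at 0.11 and -0.93.

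Splits between probe sets were thus a feature of several members. Of the 14 members with more than 1 probe set on chip A, 4 differed by over 1 log2 unit between their highest and lowest: Clu by 2.48, Srebf2 by 1.54, Soat1 by 1.04 and Mvk by 1.02. Over all 1868 such genes 18.5% did, and the median range was 0.417 against 0.454 for the members. The Mvk probe sets stood at 0.43 (ratios 1.39, 1.16, 1.31 and 1.56; limma adjusted p = 0.0145), 0.00 and -0.59 (0.656, 0.667, 0.686 and 0.646; 0.00112). In Srebf2, Soat1, Mvk and Nr1h2, 1 probe set each was low and even, with all ratios under 0.7 and the highest less than 1.2 times the lowest. That held for 4 of 48 member probe sets and 10.3% of the 12783 single-gene probe sets on chip A. Whether a low, even probe set detected its transcript cannot be read from ratios. The enzymes with a pair of probe sets from Fdft1 onward were closer, at ranges of 0.03 (Fdft1), 0.09 (Lss), 0.20 (Hsd17b7 and Sc5d) and 0.26 (Cyp51). The _s_at type of the higher Cyp51 probe set can also bind related transcripts.

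**Figure D4:**
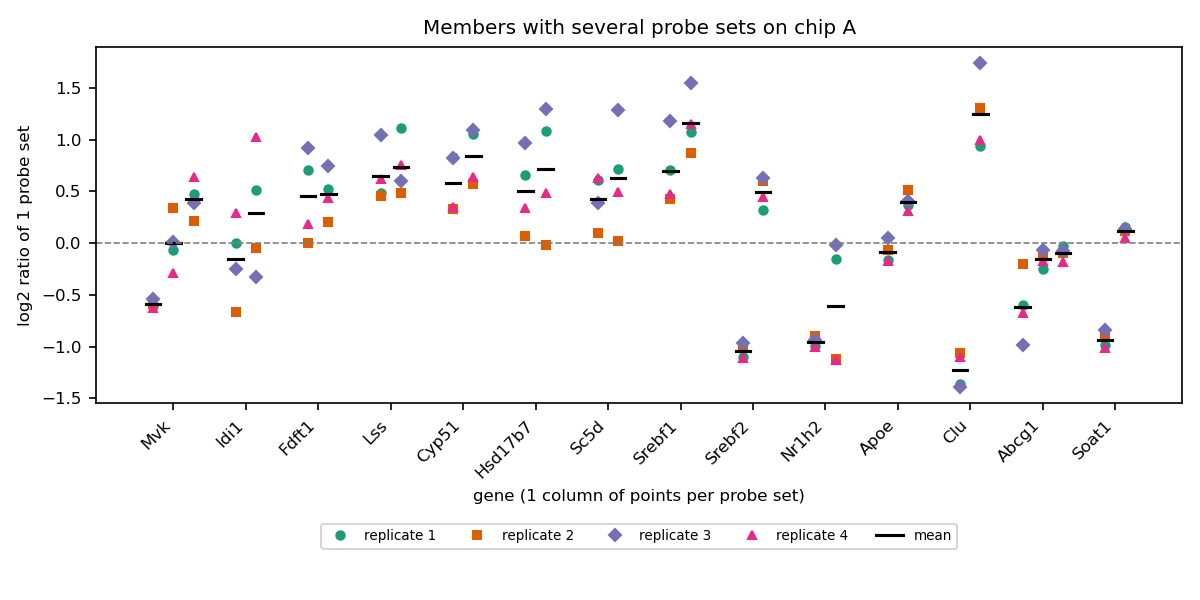
Log2 ratio (y axis) of every probe set of the 14 members with more than 1 on chip A. Each column of points is 1 probe set, symbols are the 4 replicates and black bars their mean. Clu, Srebf2, Soat1 and Mvk have probe sets over 1 unit apart, Clu at 1.25 and -1.23, while those of Fdft1 and Lss nearly coincide.

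On chip B, 0 of 8 members lay above a ratio of 1 by limma (0 also at an unadjusted p under 0.05) and 3 below, against 4.13% and 30.9% of its 5667 genes. With probe sets fitted singly 1 member probe set was above, of Abca1, and 3 below, against 5.08% and 27.1%. After centring 0 were above and 0 below by limma, against 4.98% and 25%. This exporter loads cholesterol onto apolipoproteins, and its gene mean had ratios of 1.89, 1.14, 1.53 and 0.966 (mean log2 0.42 ± 0.43; limma adjusted p = 0.14, interval -0.05 to 0.88), high in replicates 1 and 3. The probe set that passed had 2.03, 1.39, 1.92 and 1.19 (0.67; limma adjusted p = 0.0327). Cyp46a1, the neuronal enzyme that hydroxylates cholesterol for removal from the brain, had 1.17, 1, 1.15 and 2.31, so its mean of 0.41 (interval -0.16 to 0.98) rests on replicate 4. The sterol carrier gene Stard4 had 0.813, 1.08, 0.738 and 1.01 (-0.15, interval -0.44 to 0.14).

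For 5 members both array types held probe sets, which differ between the types. Lrp1 had 0.646, 0.651, 0.667 and 0.935 on chip B (mean log2 -0.48 ± 0.26; limma adjusted p = 0.0269), below the reference on all 4 arrays, where chip A had it above on all 4. Scap had 0.883, 0.847, 0.918 and 0.802 on chip B (-0.22 ± 0.08; limma adjusted p = 0.0358), also opposite to chip A. Insig2 had 0.857, 0.920, 0.753 and 0.865 (-0.24 ± 0.12; limma adjusted p = 0.0437). After centring none of the 3 passed, Lrp1 at limma adjusted p = 0.0527, Scap at 0.216 and Insig2 at 0.257. Without replicate 1, 2 or 3 none of them passed either, and without replicate 4 Lrp1 alone did (limma adjusted p over the alternatives from 0.00501 to 0.108 for Lrp1, from 0.034 to 0.216 for Scap and from 0.0422 to 0.257 for Insig2). Nsdhl had 0.744, 0.810, 1.38 and 0.929 on chip B (-0.09, interval -0.52 to 0.33) and Sc5d 0.985, 0.880, 1.91 and 1.76 (0.39, interval -0.21 to 0.98), each highest in replicate 3 as on chip A.

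**Figure D5:**
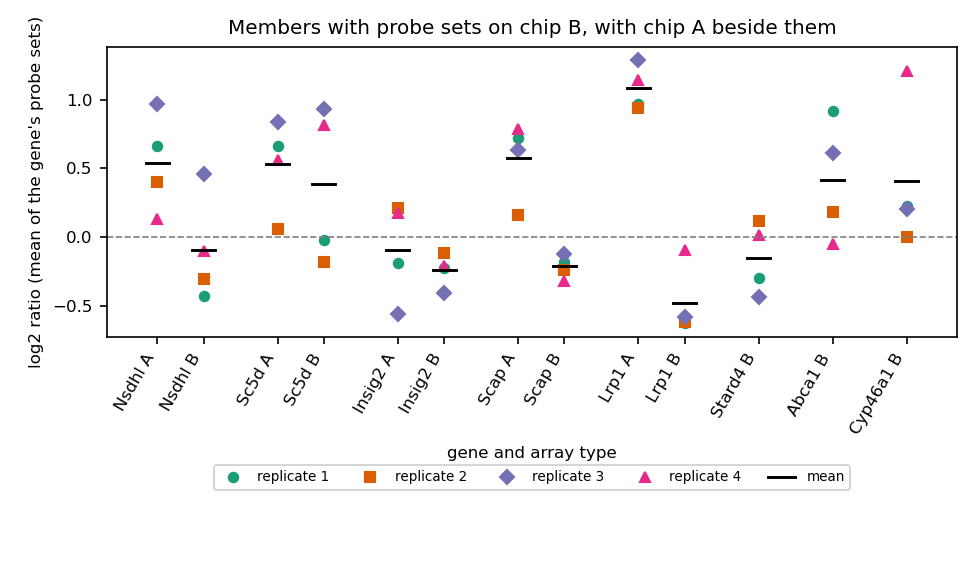
Log2 ratio (y axis) of the 8 members with probe sets on chip B, with chip A beside it where both types measured the gene. Symbols are the 4 replicates, black bars their mean and the dashed line a ratio of 1. Lrp1 stands at 1.08 on chip A and -0.48 on chip B, and Scap at 0.58 and -0.22.

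Setting enzymes against all other members gave a small difference. The enzymes' mean log2 ratio minus that of the other members was 0.34, 0.051, 0.268 and 0.103 in replicates 1 to 4 on chip A, a mean of 0.19 ± 0.14 (SD, n = 4), positive on 4 of 4 arrays. Lcat, Lrp1 and Srebf1 raise the mean of the other members. With medians over genes in place of means the difference was 0.50 ± 0.41, and it was negative in replicate 2 (-0.053). On chip B, with 2 enzymes against 6 other members, it was 0.19 ± 0.47, with replicates 1 and 2 below 0.

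Of other genes of cholesterol handling outside the 37, 2 of 24 measured on chip A were above the reference and 4 below. Their median log2 ratio was 0.07. The shares of all chip A genes were 9.17% above and 32.9% below. Above were Abca3, a lipid transporter, at 0.57 ± 0.22 (limma adjusted p = 0.00702), and Erlin2, an endoplasmic reticulum protein that binds cholesterol, at 0.49 ± 0.28 (0.0228). The highest was Cyp7b1, an oxysterol hydroxylase, at 0.66 ± 0.55 without passing (limma adjusted p = 0.0516), and Abcg4, a sterol transporter, stood at 0.53 ± 0.69 (0.155), below 1 in replicate 2 alone. Below were Cyp27a1, which makes an oxysterol, at -0.79 ± 0.64 (limma adjusted p = 0.0428), Mylip, which marks the LDL receptor for breakdown, at -0.60 ± 0.42 (0.0307), the lysosomal membrane gene Scarb2 at -0.54 ± 0.32 (0.0218), and Apoa1 at -0.22 ± 0.06 (0.0446). After centring none of these 4 was below (limma adjusted p from 0.0616 to 0.171) and 6 of the 24 were above, against 12.3% of all genes. On chip B 0 of 6 were above by limma (0 at an unadjusted p under 0.05) and 3 below, against 4.13% and 30.9% of its genes. Those below were Osbp and Stard5, which bind sterols, each at -0.51, and Ggps1 at -0.27. Abca3 at 0.33 and Abca7 at -0.11 were the highest there, and Ch25h stood at -0.47 without passing.

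In fatty acid synthesis, which shares the SREBP factors, 7 of 13 genes on chip A were above the reference and 5 below. All chip A genes had shares of 9.17% above and 32.9% below. The median log2 ratio of the 13 was 0.43. Scd, a stearoyl-CoA desaturase, was highest at ratios of 5.48, 2.05, 4.08 and 2.64 (1.73 ± 0.63; limma adjusted p = 0.00264), with replicates 1 and 3 above 2 and 4. Fads2, a desaturase of long fatty acids, had 3.38, 2.54, 2.50 and 1.85 (1.33 ± 0.36; limma adjusted p = 0.00106), and Acss2, which makes acetyl-CoA, 1.79, 1.67, 1.75 and 1.6 (0.76 ± 0.07; 0.00054). Fads1 at 0.67, Me1 at 0.64, Fasn at 0.48 and Elovl6 at 0.43 were also above. Below were Acacb at -0.67 ± 0.07 (limma adjusted p = 0.000876), Acaca at -0.44, Scd2 at -0.40, Elovl1 at -0.39 and Elovl5 at -0.28, of which Acacb, Acaca and Scd2 held after centring. On chip B Scd2 stood at 0.10 and Elovl6 at -0.06, and neither passed.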

How the data were processed

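RNA of 4 biological replicates was read on chip A and chip B, Affymetrix array types. RMA is named, without a version, in the submitters' processing notes, and the deposited values are ratios on a linear scale. The reference, and the step from RMA output to a ratio, were not given in the sources used here. On chip B 23% of probe sets hold exactly 1 on some array. No columns were left unused.

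Ratios were put on the log2 scale with no pseudocount and no filter on low values. The 57 control probe sets per type were left out. Single-gene probe sets (12783 on chip A, 7564 on chip B, by the platform annotation) were averaged per gene, giving 10411 and 5667 genes. Each type was fitted with limma 3.58.1 in R 4.3.3 (intercept, eBayes, two-sided), with Benjamini-Hochberg adjustment at 0.05. Intervals are 95% from that fit. The number of arrays limits the precision: 4 arrays cannot go below p = 0.125 in an exact sign test, so calls lean on variance pooled across genes, and p-values concern these replicates only. The fit was tested on simulated data. Motifs were searched in RefSeq promoters (GRCr8).

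Replicate pairs correlated at 0.716 to 0.792 on chip A and 0.710 to 0.786 on chip B over probe sets. Array medians ran from 0.903 to 0.946 and from 0.888 to 0.967, and centring on them added 0.12 and 0.10 to log2 ratios. All members are named, with array values for those past a test, centred or not, and for the 3 highest and lowest of each role. Of related genes those past the test and the 3 highest and lowest of each list are named. The members and lists were chosen with earlier results of these data known. Alternatives were centring, a trended, robust prior, the median probe set, an offset of 0.1, leaving out ratios under 0.05, single probe sets and each replicate left out.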

Additional observations from a re-analysis of the deposited data

Results flagged for a closer look

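In 2 of 42 member values and group differences, 1 array stood apart from the other 3 by Dixon's criterion for 4 samples, which chance alone meets in about 1 of 20 groups. Tm7sf2 on chip A had a log2 ratio of 1.53 in replicate 3, with the others from 0.69 to 0.82. Lrp1 on chip B had -0.10 in replicate 4, with the others from -0.63 to -0.58. Lrp1 and Scap lay on opposite sides of a ratio of 1 on the array types, in all 4 replicates each: Lrp1 at 1.08 on chip A and -0.48 on chip B, and Scap at 0.58 and -0.22. The probe sets differ between the types, and the difference was not tested.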

How the results depend on the processing

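Of the 21 members called on chip A, 12 were called in all 9 gene-level alternatives: Lss, Cyp51, Tm7sf2, Msmo1, Dhcr7, Scap, Srebf1, Lrp1 and Lcat above, and Ebp, Nr1h2 and Soat1 below. How many of all called genes held in all 9 is not given here. These alternatives do not show splits between probe sets or array types. Lrp1 and Scap, above on chip A, stood at -0.48 and -0.22 on chip B. For Soat1 and Nr1h2 only the low, even probe set passed alone, and the other Soat1 probe set stood at 0.11. Members above on chip A numbered 9 to 14 with 1 replicate left out, 12 with a trended, robust prior, and 16 after centring; those below numbered 3 to 5, 6 and 3. With single probe sets, 18 members had at least 1 above and 8 at least 1 below, with Mvk, Srebf2 and Clu in both, so these counts are of another kind. Without replicate 1 all 9 members above were among the 15. On chip B the 3 members below became 0 after centring, 1 with the trended, robust prior and 0 to 1 with a replicate left out, and the 0 above became 1 with single probe sets. Related genes below on chip A numbered 3 after centring and 2 to 9 with a replicate left out, against 9, and on chip B 1 with median probe sets, against 3. The enzymes' difference from the other members ran from 0.14 to 0.24 on chip A with a replicate left out (0.50 with medians over genes), and on chip B from -0.02 without replicate 3 to 0.32, so its direction there rests on replicate 3. The causes were not tested beyond what fewer arrays or a shifted centre bring by construction. No paired analysis was possible because the 2 array types hold different probe sets, except for genes measured on both, among them 5 members. For these the gene values could be paired by replicate, which the types share. This was not done, and the types were not tested against each other. Such a difference would also compare different probe sets. The difference between enzymes and other members was taken within each array. Dim signal could not be judged, since ratios keep no background.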
